A study of Mus musculus with 39 samples.

Results

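The 8 genes described here encode proteins that hepatocytes make for the blood, and they were followed in subcutaneous fat of mice. They are Alb (albumin), Ttr (transthyretin), Apoa1 and Apoa2 (apolipoproteins A-I and A-II), Ahsg (fetuin-A) and Fga, Fgb and Fgg (the fibrinogen chains). They were taken by gene name with all their probes, which gave 8 of the 29411 gene names on the array, 9 of its 40628 probes and 10 of its 43803 spots. The genes were selected on their measured levels, which stood high on the HFC array of Day 14 and the LFC array of Week 18, so their levels on these arrays are a description and carry no test.

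Total RNA of subcutaneous adipose tissue from C57BL/6J mice had been hybridised to 39 Agilent 1-colour arrays. Mice aged 3 to 4 weeks at the start ate a low-fat diet with 10% of calories from fat (LFC, 10 arrays) or a diet rich in sucrose with 60% of calories from fat (HFC, 11 arrays). The other mice ate the HFC diet with KAL-1, a plant-based formulation, at 5 µg (HF5), 20 µg (HF20) or 75 µg (HF75), with 6 arrays each. LFC and HFC were measured at days 6, 10 and 14, at Week 0 and then at intervals of 3 weeks until Week 18, HFC at Day 1 as well, and the KAL-1 diets from Week 3 onwards. A diet was represented by a single array at each labelled time, without a replicate. The methods given for the liver of this experiment count weeks from Day 14, so that Week 0 would fall at the same time as Day 14 and the LFC and HFC diets would have 2 arrays there. They were kept apart as labelled, and nothing in the labels tells if the RNA of an array came from 1 animal or from a pool. The spread between arrays may thus be partly technical, and with so few arrays the precision of each comparison is limited.

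Albumin is the main protein of blood plasma and carries fatty acids and hormones, and transthyretin carries thyroid hormone and the retinol-binding protein. Apoa1 and Apoa2 are the chief proteins of high-density lipoprotein, fetuin-A binds calcium phosphate and inhibits mineral growth, and the fibrinogen chains join into the precursor of the clot. The liver is the main source of these proteins, whose genes are switched on by hepatocyte-enriched factors, those of the FOXA and C/EBP families among them. Fat is known to secrete other acute-phase proteins, such as haptoglobin and serum amyloid A3.

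A level below is the log2 of the processed spot intensity minus the log2 of the 75th percentile of the same array, so that a spot at 0 is as bright as that percentile. A spot was called well above background by the scanner software. Probes of 5 of the 8 genes, among them both that measure Apoa2, are shown as deposited so that the measured part of each transcript can be seen, and those of Ahsg, Fgg and Ttr are not printed. The probes shown have 60 bases each and are in lower case because no part of them is marked:
Alb: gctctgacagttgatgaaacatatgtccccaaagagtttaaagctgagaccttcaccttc
Apoa1: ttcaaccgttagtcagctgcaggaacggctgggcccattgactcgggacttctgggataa
Apoa2: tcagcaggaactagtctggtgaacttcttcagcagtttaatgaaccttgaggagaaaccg
Apoa2, second probe: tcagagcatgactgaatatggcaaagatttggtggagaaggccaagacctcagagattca
Fga: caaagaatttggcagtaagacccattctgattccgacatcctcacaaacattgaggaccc
Fgb: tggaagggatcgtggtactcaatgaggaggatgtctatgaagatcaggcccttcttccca
Both Apoa2 probes had 45% G and C, and the first of them was spotted 2 times on the array.

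All 8 genes had their highest level of the 39 arrays on the HFC array of Day 14, and all 8 were called well above background there. Over all gene names, 4.68% had their highest level on that array and 84.4% were well above background on it. Apart from HFC Day 14, the share of spots well above background was 82.1% on HFC Day 1, 87.8% on HF20 Week 15 and 49.3% to 71.4% elsewhere. On HFC Day 14 it was 84.1%. Alb reached 5.62, Ahsg 5.58, Fgb 5.67 and Fgg 5.66 there, and the spots of Alb, Fgb and Fgg were saturated, so these values are lower bounds. Apoa2 stood at 2.87 (second probe 1.60), Fga at 2.68, Apoa1 at 1.74 and Ttr at -0.71. The HFC array of Week 0, which would be the other HFC array of that time, did not carry the genes at this level and had Alb at -2.53, Ahsg at -2.59, Fgb at -3.46 and Fgg at -1.91, with Apoa1, Apoa2, Fga and Ttr not well above background. The LFC array of Day 14, scanned on the same day as the HFC array, had a mean level over the 8 genes of -5.03, against 3.64 on the HFC array and -5.39 on the HFC array of Week 0.

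**Figure D1:**
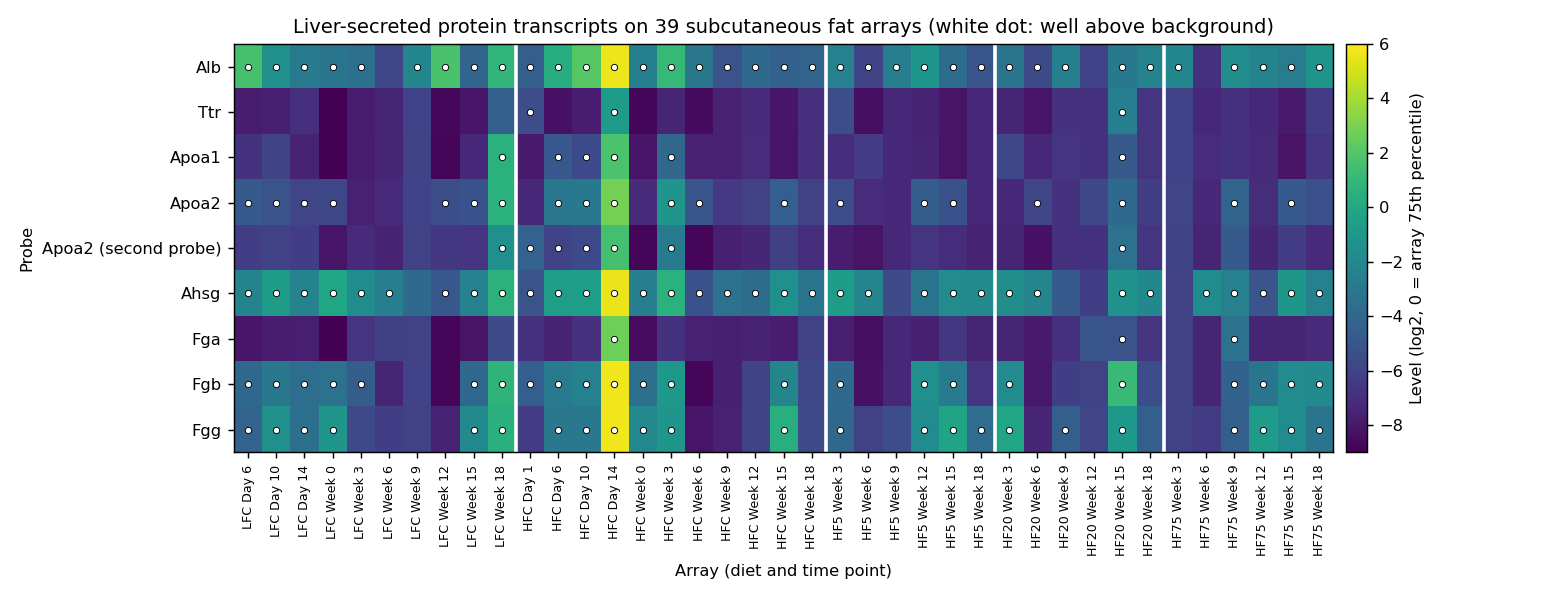
Level of each probe (rows) on each of the 39 arrays (columns, by diet and time point); colour gives the log2 level relative to the 75th percentile of the array, and a white dot marks a spot well above background. The HFC Day 14 column is bright for all 9 probes, and the LFC Week 18 column for 7 of them.

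The excess of a gene on an array is its level there minus its median over the 37 arrays that remain without HFC Day 14 and LFC Week 18. On HFC Day 14 the fibrinogen chains had an excess of 10.12 (Fga), 10.01 (Fgb) and 9.87 (Fgg) on the log2 scale. The apolipoproteins had 8.85 (Apoa1) and 8.71 (Apoa2), Alb had 8.44, Ahsg 7.89 and Ttr 6.74. The median over the 8 genes was 8.78, beside 0.16 over all gene names. All 8 were at least 8-fold above their median of the 37 arrays, as were 4.58% of all gene names.

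Many of the 37 arrays gave some of these genes no signal above background, so the excess was also taken with each such spot raised to the dimmest level called well above background on its array. Counted in this way Fgb was at least 791-fold, Fgg at least 719-fold and Alb at least 348-fold higher on HFC Day 14. Fga was at least 280-fold, Apoa2 at least 261-fold, Apoa1 at least 139-fold and Ttr at least 26.1-fold higher. Ahsg, which was well above background on 32 of the 37 arrays and not saturated, was 238-fold higher. These values hold for the processed signal only. Under normexp background correction the excess on HFC Day 14 was smaller for each of the 8 genes, from 2.32 (Ttr) to 7.69 (Fgb), with 4.74 for Apoa1, 5.59 for Apoa2 and 5.76 for Fga, and 7 of the 8 genes were at least 8-fold higher.

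The LFC array of Week 18 carried 6 of the 8 genes well above background, beside 57.2% of all gene names. Alb stood at 0.86, Ahsg at 0.65, Fgb at 0.78, Fgg at 0.54, Apoa1 at 0.60 and Apoa2 at 0.59 there, while Fga (-5.59) and Ttr (-4.39) were not well above background. The excess was 7.71 for Apoa1, 6.43 for Apoa2, 5.12 for Fgb, 4.75 for Fgg, 3.69 for Alb and 2.96 for Ahsg, with a median over the 8 genes of 4.22. Of the 8 genes, 6 were at least 8-fold above their median of the 37 arrays, beside 5.81% of all gene names, and Ttr was among these 6 although its spot was not well above background. With dim spots raised 5 genes were at least 8-fold higher, beside 3.43% of all gene names. The count of 6 fell to 2, Apoa1 and Apoa2, under normexp and also without scaling between arrays. Apoa1 was at least 63.2-fold, Apoa2 at least 53.8-fold, Fgb at least 26.7-fold, Fgg at least 20.7-fold and Alb 12.9-fold higher there. These values hold for the processed signal only. Under normexp the excess was 3.34 for Apoa1, 3.01 for Apoa2, 2.56 for Fgb, 2.35 for Fgg and 2.03 for Alb. Without scaling the excess of Alb was 1.28 in place of 3.69.

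This array was the dimmest of the 39, with an intensity of 108 at the 75th percentile against 1243 on HFC Day 14. The median excess of all gene names on it was 0.77, and 11.8% of them had their highest level there. In scanner units Alb gave 196 on LFC Week 18, 181 on HFC Week 0 and 60949 on HFC Day 14. Apoa1 gave 164, 3.6 and 4160 on the same arrays. Without scaling between arrays the median excess of the 8 genes on LFC Week 18 was 1.74 in place of 4.22, and that on HFC Day 14 was 9.87 in place of 8.78. No gene of the 8 was highest on LFC Week 18, and Alb ranked 6 of 39 on it, behind HFC Day 14, HFC Day 10 (2.07), LFC Week 12 (1.67), LFC Day 6 (1.62) and HFC Week 3 (1.05).

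The HFC array of Week 3 also carried 6 of the 8 genes well above background, beside 66.8% of all gene names, with Alb at 1.05, Ahsg at 0.57, Fgb at -0.99, Fgg at -1.16, Apoa2 at -1.20 and Apoa1 at -4.07. It ranked 3 of 39 by the mean level of the 8 genes (-2.51), after LFC Week 18 (-0.74), and 0 of the 8 were highest on it, beside 1.37% of all gene names. Of the 8 genes, 5 were at least 8-fold above their median of the 37 arrays there, beside 0.748% of all gene names. With dim spots raised the count was 2, Apoa2 (at least 15.6-fold) and Alb (14.7-fold), beside 0.459% of all gene names, and Fgb was at 7.87-fold, Ahsg at 7.37-fold, Fgg at 6.33-fold and Apoa1 at 2.48-fold. The HF20 array of Week 15 was the only other array with all 8 genes well above background, and Fgb reached 1.14 and Ttr -2.59 on it. On that array 87.8% of all spots were well above background and 4936 spots carried an outlier flag, the highest values of the 39 arrays. The lists of other plasma proteins (-2.99), hepatocyte enzymes and transporters (-3.68) and hepatocyte transcription factors (-1.98) had their highest mean level of the 37 arrays on it, and so did those for intestine (-2.84) and skin (-3.19). What part any of this had in the calls was not tested.

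The background calls differed between the genes. Alb was well above background on 36 of 39 arrays and Ahsg on 34, so both were measured in nearly every sample of fat. Fgb and Fgg were well above background on 23 arrays each and Apoa2 on 20, or on 7 with its second probe. Apoa1 was well above background on 6 arrays, and Fga and Ttr on 3 each. Fga was so on HFC Day 14, HF20 Week 15 and HF75 Week 9 (-3.43), and Ttr on HFC Day 14, HF20 Week 15 and HFC Day 1 (-5.46). The number of the 8 genes well above background was 0 on 1 array (HF20 Week 12), 1 on 5 arrays, 2 on 6, 3 on 5, 4 on 5, 5 on 10, 6 on 5 and 8 on 2 arrays. The share of all spots well above background differed between these arrays too. It was 58.2% on HF20 Week 12, 49.3% to 63.2% on the 5 arrays with 1 gene, and 84.1% and 87.8% on the 2 with 8. Against this order, LFC Week 18 had 6 genes at 54.2% and HFC Day 1 had 4 at 82.1%. What part the brightness of an array had in these counts was not tested.

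**Figure D2:**
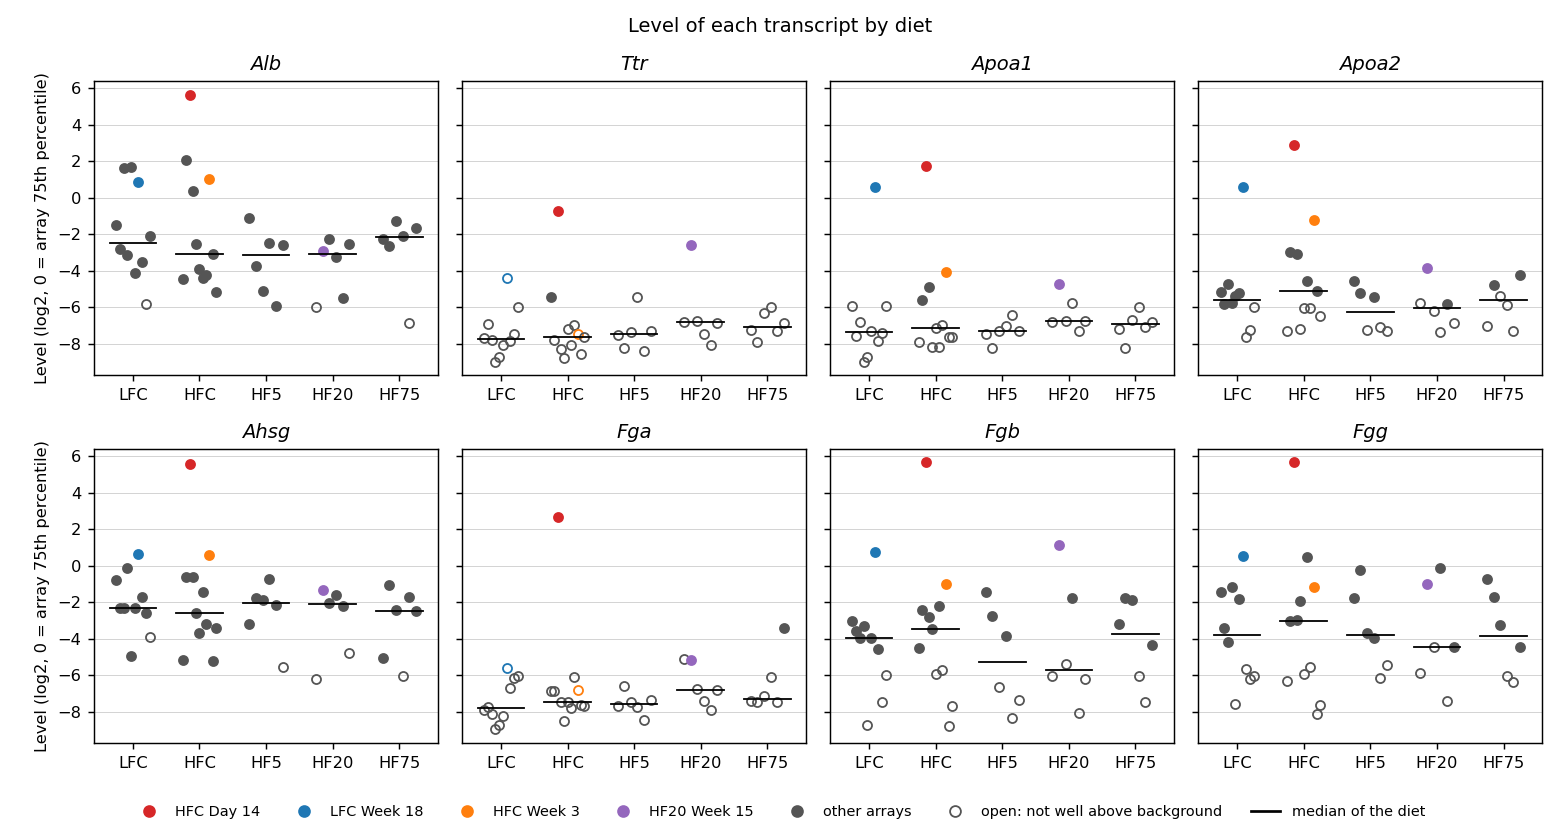
Level of each gene on every array by diet (log2, 0 is the 75th percentile of the array; filled points are well above background, open points are not, and the line is the median of the diet). HFC Day 14 lies above all other arrays in each of the 8 panels, and the diets otherwise overlap.

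Across the diets the 8 genes overlapped widely once both arrays were set aside. Alb ran from -5.81 to 1.67 with a median of -2.83 on 9 LFC arrays and from -5.18 to 2.07 with a median of -3.48 on 10 HFC arrays. It ran from -5.94 to -1.12 (median -3.14) in HF5, from -5.97 to -2.28 (median -3.08) in HF20 and from -6.87 to -1.25 (median -2.16) in HF75. The mean was highest in LFC (-2.19 ± 2.49, SD, n = 9), followed by HFC (-2.43 ± 2.62, SD, n = 10), HF75 (-2.79 ± 2.06, SD, n = 6), HF5 (-3.49 ± 1.80, SD, n = 6) and HF20 (-3.74 ± 1.59, SD, n = 6), and no step in this order was larger than the spread within a diet.

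Fgb, the fibrinogen beta chain, had a mean of -4.95 ± 1.995 (SD, n = 9) in LFC, -4.45 ± 2.53 (SD, n = 10) in HFC, -5.06 ± 2.77 (SD, n = 6) in HF5, -4.38 ± 3.40 (SD, n = 6) in HF20 and -4.11 ± 2.29 (SD, n = 6) in HF75. Ahsg had a mean of -2.33 ± 1.46 (SD, n = 9) in LFC and -2.55 ± 1.97 (SD, n = 10) in HFC, and its KAL-1 means lay between -3.13 in HF75 and -2.55 in HF5. Apoa2 had a mean of -5.89 ± 0.96 (SD, n = 9) in LFC and -4.99 ± 2.02 (SD, n = 10) in HFC, and its KAL-1 means lay between -6.14 in HF5 and -5.77 in HF75. The second Apoa2 probe, mostly not well above background, had a mean of -6.75 ± 0.73 (SD, n = 9) in LFC and -6.45 ± 1.90 (SD, n = 10) in HFC. Apoa1 was well above background on 3 of these 10 HFC arrays (Day 6, Day 10 and Week 3), on 1 HF20 array and on 0 arrays of LFC, HF5 and HF75. For Fgb, Ahsg and Apoa2 the diet means lay closer together than the arrays within any diet.

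The 8 genes were next compared pair by pair over the arrays. Over all 39 arrays the 28 pairs had a median Pearson r of 0.61 (range 0.36 to 0.91). Over the 37 arrays without HFC Day 14 and LFC Week 18 the median was 0.31 (range -0.18 to 0.86), and the median Spearman rho was 0.21. The points of a pair share the RNA of an array and its scaling, and a gene at the floor on most arrays adds noise to its pairs, so these are descriptions with no test.

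Fgb and Fgg went together most closely, with r = 0.86 and rho = 0.89 over the 37 arrays, of which 19 had both well above background. In the gene reference used here Fgg, Fga and Fgb are neighbours on chromosome 3 with 0 other protein-coding genes between them. Fga did not share the pattern of the other chains over the 37 arrays (r = 0.12 with Fgb and -0.09 with Fgg); only 2 of them showed it well above background. Alb and Apoa2 had r = 0.63 and rho = 0.54, with 18 arrays on which both were well above background. Alb and Ahsg, each measured above background on nearly every array, had r = 0.17 and rho = 0.12, with both well above background on 30 of the 37. Ahsg had r = 0.54 with Fgb and 0.55 with Fgg. Ttr and Fga had r = 0.58, but both were well above background together on 1 of the 37 arrays.

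**Figure D3:**
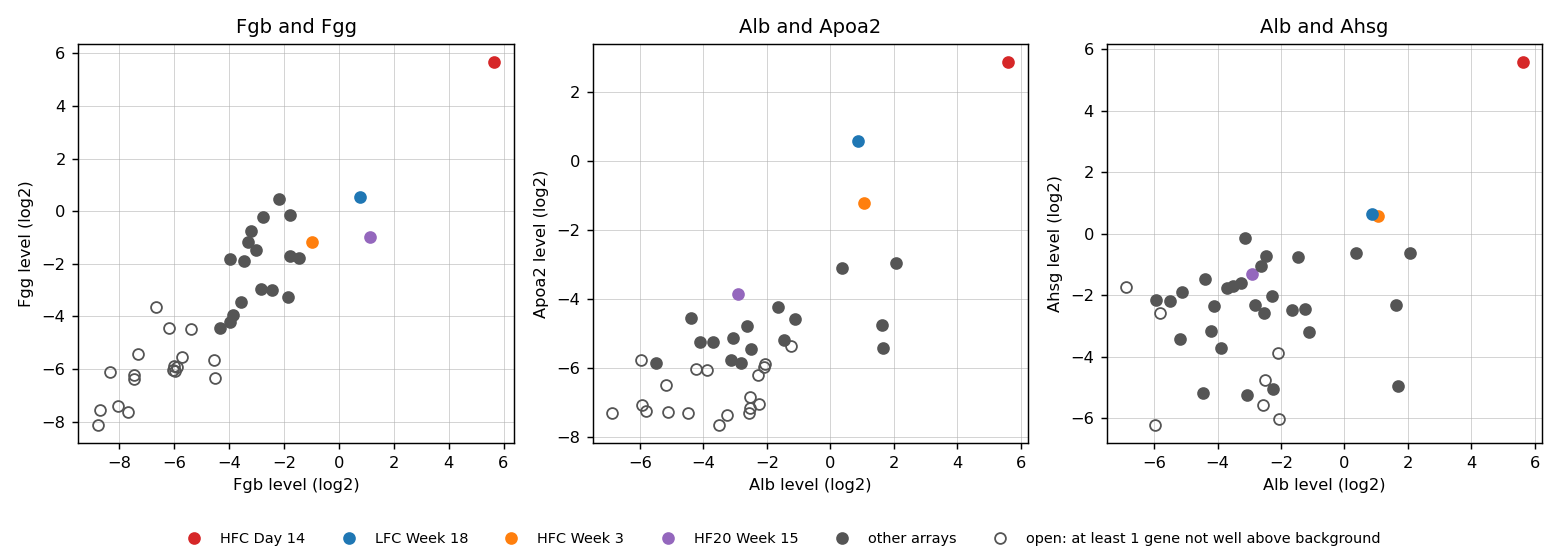
Levels of Fgb and Fgg, Alb and Apoa2, and Alb and Ahsg on the 39 arrays (log2, 0 is the 75th percentile; open points have at least 1 gene not well above background). Fgb and Fgg rise together with scatter, as on HF5 Week 18 (Fgb -6.67, Fgg -3.66), and many of their points are open. Alb and Ahsg form a cloud apart from HFC Day 14.

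Arrays that carried Alb did thus not always carry fibrinogen. On LFC Week 12 Alb stood at 1.67 while Fgb (-8.71) and Fgg (-7.56) were not well above background. On HFC Week 15 Fgg stood at 0.48, its highest level of the 37 arrays, with Alb at -4.38. On HFC Day 10 Alb had its highest level of the 37 arrays, 2.07, with Fgb at -2.43 and Fgg at -3.01.

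The sequence just before the start of these genes was looked at because the genes were high together on an array. RefSeq gave promoters for 7 of the 8 genes (GRCm38.p6), and the 250 bases before the start were searched on both strands for TTNNGCAA, core letters of C/EBP sites. The promoters of Alb and of the fibrinogen chains that held it are shown 5′ to 3′ along the gene, with the match in capitals.
Alb: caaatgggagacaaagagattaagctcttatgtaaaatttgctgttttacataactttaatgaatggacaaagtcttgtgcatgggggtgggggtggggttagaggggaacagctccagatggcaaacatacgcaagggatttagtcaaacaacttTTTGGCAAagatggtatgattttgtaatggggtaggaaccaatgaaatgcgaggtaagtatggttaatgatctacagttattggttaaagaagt
Fga: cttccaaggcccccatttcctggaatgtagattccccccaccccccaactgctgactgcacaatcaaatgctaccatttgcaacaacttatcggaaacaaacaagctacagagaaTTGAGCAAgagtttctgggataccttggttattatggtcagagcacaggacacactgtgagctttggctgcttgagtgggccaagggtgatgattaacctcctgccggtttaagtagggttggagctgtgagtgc
Fgb: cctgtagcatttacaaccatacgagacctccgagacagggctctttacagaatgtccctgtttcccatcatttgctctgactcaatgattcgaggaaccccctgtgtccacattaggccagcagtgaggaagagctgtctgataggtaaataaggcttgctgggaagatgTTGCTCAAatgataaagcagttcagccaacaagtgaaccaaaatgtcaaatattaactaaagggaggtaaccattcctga
They lie at chr5:90460620-90460869 on the plus strand (Alb), chr3:83025903-83026152 on the plus strand (Fga) and chr3:83049864-83050113 on the minus strand (Fgb). The first base of the match lay 94 bases before the start in Alb, 135 in Fga and 80 in Fgb. Ahsg and 1 of the 2 promoters of Apoa2 also held the motif, so that 5 of 8 promoters did, and those of Apoa1 and Fgg did not in this window. Of 32851 promoters of the same length 9.56% held it. A match of letters is a description and does not show that a factor binds there.

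Other genes of hepatocytes were read from lists to see how far the pattern went. Of 39 other plasma protein genes on the array, 33 had their highest level on HFC Day 14, all 39 were well above background there, and 33 were at least 8-fold above their median of the 37 arrays (17 on LFC Week 18). Over all gene names these shares were 4.68%, 84.4% and 4.58% (5.81% on LFC Week 18). The median excess of the 39 genes was 6.07 on HFC Day 14 and 2.63 on LFC Week 18. Of the 39 genes 20 were well above background on most of the 37 arrays and the others on fewer, so the named ones are given as bounds against spots raised in the way described for the 8 genes. Counted so, 32 of the 39 were well above background and at least 8-fold higher on HFC Day 14 and 11 on LFC Week 18, beside 1.06% and 3.43% of all gene names. The 5 genes with the largest smaller excess of both arrays were F2 (prothrombin, at least 418-fold on HFC Day 14 and at least 22.0-fold on LFC Week 18), Mug1 (murinoglobulin, a protease inhibitor, at least 601-fold and 20.9-fold), Ambp (at least 1060-fold and 49.98-fold), Apoh (at least 430-fold and 14.3-fold) and Apob (at least 8.47-fold and 28.1-fold). Of the 37 arrays F2 was well above background on 8, Mug1 on 7, Ambp on 25, Apoh on 5 and Apob on 4.

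Genes that act inside the hepatocyte went the same way on HFC Day 14, where 22 of 29 enzymes and transporters had their highest level, all 29 were well above background and 25 were at least 8-fold above their median of the 37 arrays. The shares of all gene names were 4.68%, 84.4% and 4.58%. On LFC Week 18 12 of the 29 were well above background, a lower share than the 57.2% of all gene names, and 7 were at least 8-fold higher, beside 5.81%. With dim spots raised 22 of the 29 were at least 8-fold higher on HFC Day 14 and 6 on LFC Week 18, beside 1.06% and 3.43% of all gene names. Among the leading genes of that list were Agxt (at least 33.2-fold higher on HFC Day 14 and 27.9-fold on LFC Week 18), Slco1b2 (at least 116-fold and 12.8-fold), Uox (urate oxidase, at least 144-fold and 37.8-fold) and Cps1 (the first enzyme of the urea cycle, at least 86.0-fold and 7.65-fold). Of 10 hepatocyte transcription factors 4 had their highest level on HFC Day 14 and 3 on LFC Week 18, beside 4.68% and 11.8% of all gene names. Foxa2 was at least 20.0-fold higher on HFC Day 14 and 10.2-fold on LFC Week 18, and Onecut1 at least 3.74-fold and 132-fold. Nr1i2 was at least 4.295-fold and Foxa3 at least 2.28-fold higher on HFC Day 14, and neither was well above background on LFC Week 18. Of the 37 arrays Foxa2 was well above background on 1, Onecut1 on 12, Nr1i2 on 2 and Foxa3 on 0. Not all factors went this way: on HFC Day 14 Foxa1 (-1.57), Nr1i3 (-1.64) and Nr5a2 (-0.02) were below their median of the 37 arrays, and on LFC Week 18 Nr1h4 was (-1.03). The median excess of the 10 was 3.19 on HFC Day 14 and 2.55 on LFC Week 18, and 6 and 4 of them were at least 8-fold higher before dim spots were raised, or 3 and 4 after it.

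**Figure D4:**
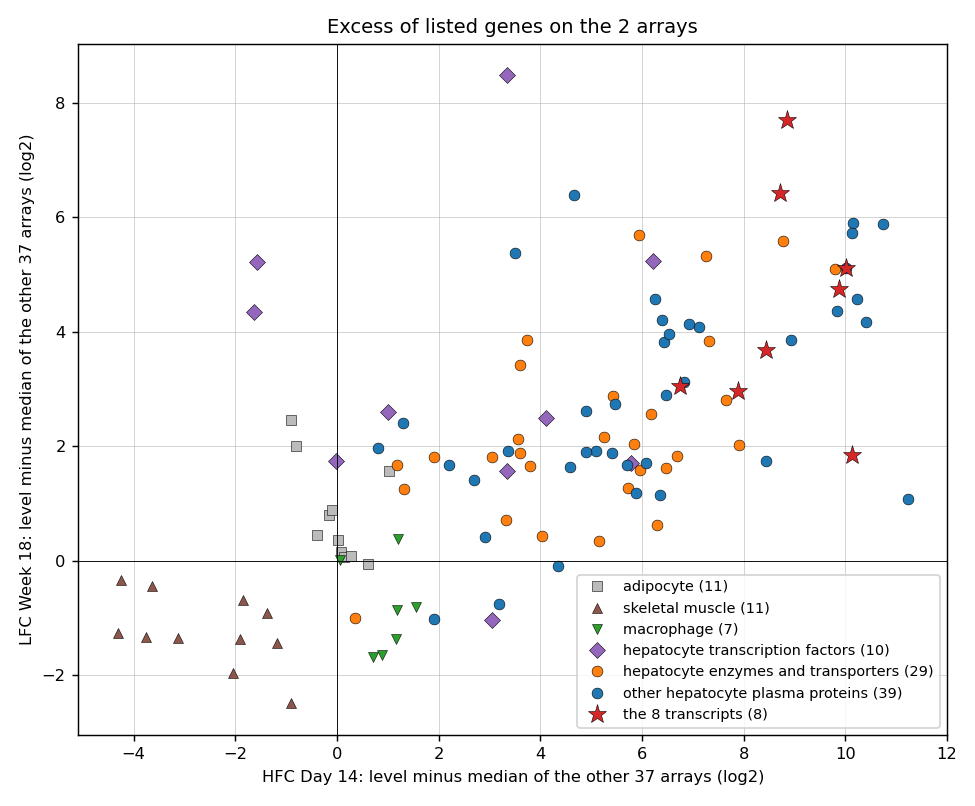
Level on HFC Day 14 (horizontal) and on LFC Week 18 (vertical) minus the median of the other 37 arrays, in log2 units, for the 8 transcripts (stars) and genes of 6 lists, with the number of genes in brackets. Plasma proteins and hepatocyte enzymes extend to the right with the stars, while adipocyte, macrophage and skeletal muscle genes stay below 2 on HFC Day 14.

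Fat was present on both arrays. All 11 adipocyte genes, among them Adipoq and Fabp4, were well above background on each of the 39 arrays, with a mean level of 4.41 on HFC Day 14 and 5.23 on LFC Week 18 against 2.50 to 5.91 on the 37 arrays. None of the adipocyte, skeletal muscle or macrophage genes had its highest level on HFC Day 14. The intestine list had 2 of its 6 genes highest there, with a mean of -4.14 against -7.02 to -2.84 on the 37 arrays. The pancreas list had 1 of 9 and the kidney list 0 of 6 highest on it. Over all gene names the share was 4.68%. Apoa4, a gene of the intestine list, was well above background on HFC Day 14 and had its highest level of the 39 arrays there (-3.31, at least 4.31-fold higher with dim spots raised). On LFC Week 18, the dimmest array, the red blood cell list had 3 of 5 genes highest, beside 11.8% of all gene names. Its mean there was 3.29 against -1.57 to 2.69 on the 37 arrays. The kidney list had its highest mean of the 39 arrays on LFC Week 18 as well, at -3.65 against -7.33 to -3.87 on the 37 arrays. Of its 6 genes 3 were well above background, beside 57.2% of all gene names. Among these 3 Slc22a6, an anion transporter, was at least 9.97-fold and Kap at least 4.67-fold higher than their median. Skin genes ranked 2 of 39 by their mean on LFC Week 18 (-3.57) and 3 of 39 on HFC Day 14 (-3.89), against -6.14 to -3.19 on the 37 arrays. On HFC Day 14 the simple epithelial keratins Krt8 (an excess of 4.04, rank 3 of 39) and Krt18 (3.33, rank 4 of 39) were high, though the mean of their list ranked 6 of 39. The part of these genes in the values of the 8 genes was not tested. In bulk tissue a higher share of cells of a type and more RNA per cell cannot be told apart.

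Outside the 8 genes, the pattern most like theirs was sought among 27228 genes that were well above background on at least 2 arrays, by Pearson r with the mean level of the 8 over the 39 arrays. The 10 closest were Mug1 (r = 0.90, or 0.68 over the 37 arrays), Akr1c6 (0.89 and 0.70), F2 (0.88 and 0.69), Apof (0.87 and 0.57), Es1 (0.86 and 0.62), Gckr (0.85 and 0.64), Slco1b2 (0.85 and 0.53), Gm8893 (0.84 and 0.54), Apoh (0.83 and 0.49) and Mbl2 (0.83 and 0.58). Each was lower by r once HFC Day 14 and LFC Week 18 were left out.

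The effect of the high-fat diet was read from HFC minus LFC. Of the 8 genes 5 passed the filter on dim spots (Alb, Ahsg, Apoa2, Fgb and Fgg), and Apoa1, Fga and Ttr did not. With no filter these 3 differed by 0.74 (SE 1.17), 1.05 (SE 0.95) and 0.24 (SE 0.67) over all 10 time points. No fit of these 3 genes without the arrays they were chosen on is given, so their response to diet was not tested. The 10 time points with both diets include the arrays for which the genes were chosen, so these differences are given as a description. Over them the difference was 1.26 for Apoa2 (SE 1.17), or 0.81 with both of its probes averaged. It was 0.95 for Fgb (SE 1.13), 0.69 for Fgg (SE 1.14), 0.56 for Ahsg (SE 0.91) and 0.46 for Alb (SE 1.23). Without the HFC array of Day 14 it turned to -0.42 for Alb, -0.26 for Ahsg and -0.24 for Fgg. In limma 0 of 19873 genes passed the adjusted threshold over these time points (0%), and 5.86% had an unadjusted p under 0.05. No call on any of the 8 genes was taken from fits over these time points, since such fits hold the arrays on which the genes were chosen.

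The test that does not use these arrays left out Day 14 and Week 18 and rests on 8 time points. In it limma called 0 of 19789 genes after adjustment (0%) and 6.57% at an unadjusted p under 0.05, and 0 of the 5 genes were among either. The level of Apoa2 was -4.57 ± 2.04 (SD, n = 8) with the HFC diet against -5.89 ± 1.03 (SD, n = 8) with LFC, a difference of 1.32 (SE 0.76, 95% interval -0.38 to 3.02, limma adjusted p = 0.894), with HFC higher at 5 of 8 time points. Fgb differed by 0.84 (SE 0.58, 95% interval -0.46 to 2.14, limma adjusted p = 0.914), Fgg by 0.48 (SE 0.71, 95% interval -1.10 to 2.06), Ahsg by 0.19 (SE 0.57, 95% interval -1.08 to 1.46) and Alb by 0.16 (SE 1.05, 95% interval -2.19 to 2.51). At single time points Alb ran from -5.56 (Week 12) to 4.56 (Week 3), so its sign changed between time points. Without Week 3 as well, the time of the high HFC array, the difference was 0.59 for Apoa2, 0.45 for Fgb, -0.09 for Fgg, -0.11 for Ahsg and -0.47 for Alb. The 8-point intervals allow differences of more than 2-fold either way for Alb, Ahsg and Fgg.

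**Figure D5:**
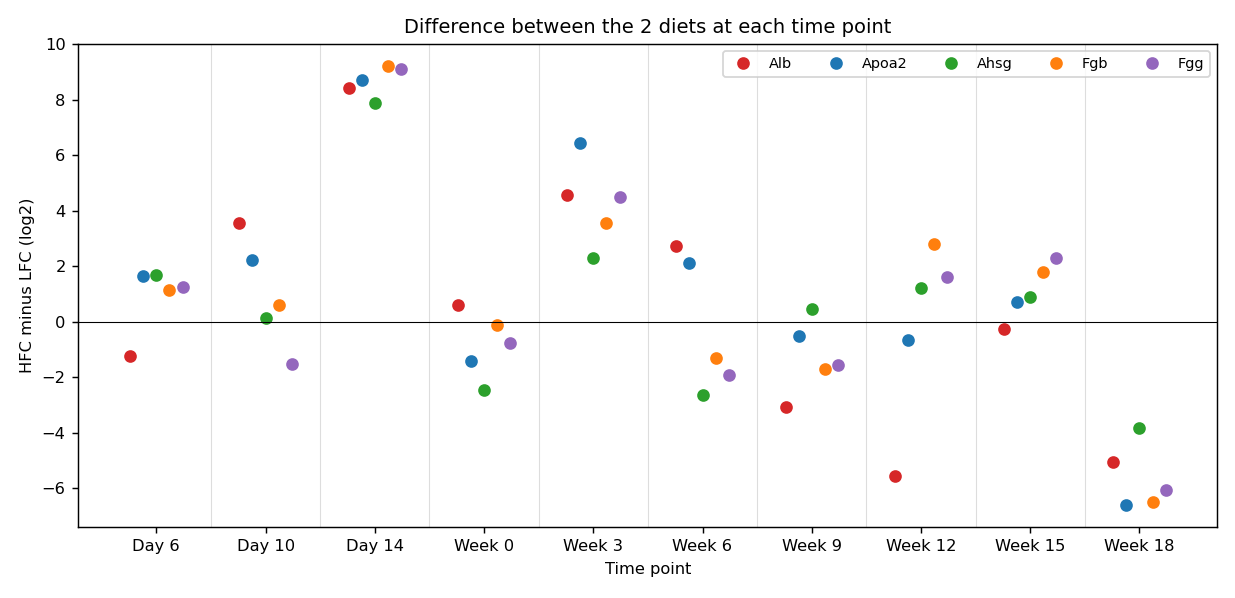
Difference in level between the HFC and the LFC array of each time point (log2, vertical) for the 5 genes that passed the filter, with time points in order. All 5 points lie above 7 at Day 14 and below -3 at Week 18, at Week 3 all 5 lie above 0, and at the remaining time points together they fall on both sides of it.

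KAL-1 was compared with HFC over Week 3 to Week 18, which leaves out HFC Day 14. The LFC array of Week 18, on which the genes were also chosen, stayed in the shared fit and entered its estimate of the spread. Without that array the adjusted count was 0 in each comparison, and the differences given below for Apoa2 and Fgg were the same. In limma 0 of 21087 genes passed the adjusted threshold for HF5, HF20, HF75 or the 3 doses together (0% each). At an unadjusted p under 0.05 the shares were 1.36%, 4.3%, 5.02% and 4.51% of all genes tested, and 0 of the 5 genes tested were among them in any of the comparisons, which share the HFC arrays. Normexp changed the outcome for HF20, with 8121 genes past the adjusted threshold in limma, 7356 of them higher, and a median difference over all genes of 0.36 in place of 0.05. Fgb was among them, at 1.88 (limma adjusted p = 0.0239). For the doses together Apoa2 was at -5.96 ± 1.15 (SD, n = 18) against -4.90 ± 1.95 (SD, n = 6) in HFC, a difference of -1.06 (SE 0.85, 95% interval -2.81 to 0.69). Without Week 3, the time of the high HFC array, this difference was -0.27, and under normexp background correction it turned to 0.40. With both Apoa2 probes averaged it was -0.63. Fgg was at -3.73 ± 2.30 (SD, n = 18) against -4.65 ± 3.52 (SD, n = 6), a difference of 0.92 (SE 0.95, 95% interval -1.05 to 2.89). Leaving out 1 time point in turn, it ran from 0.48 without Week 12 to 1.55 without Week 3. The differences of the other 3 genes lay between -1.06 and 0.92.

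Of the 42 other plasma protein genes 26 were tested for HFC minus LFC without Day 14 and Week 18, and in limma 0 passed the adjusted threshold. At an unadjusted p under 0.05 the list had 1 gene higher in HFC and 2 lower, beside 6.57% of all genes tested, and its median difference was -0.02, beside -0.05 over all genes. For the KAL-1 doses together 28 were tested and in limma 0 passed the adjusted threshold, with 0 genes higher and 2 lower at an unadjusted p under 0.05, beside 4.51% of all genes tested.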

How the data were processed

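Per the labels and file headers, the deposited array files hold the intensity of each spot, in scanner units, as given by Agilent Feature Extraction (9.1 in the submitters' processing notes, 10.5.1.1 in the headers), which had subtracted the background, with no scaling between arrays. They also hold the scanner software's 0 or 1 flags for background, saturation and outliers. A series table with the authors' own log2 ratios, which compare each array with LFC at its time point, was not used.

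The log2 intensity of each spot was set against the 75th percentile of its array. Spots flagged as outliers were dropped, replicate spots were averaged, and the probe with the highest mean stood for a gene with several. Each of the 8 genes had a value on every array. The filter for testing asked that a gene be well above background on no fewer arrays than the smallest diet of the fit held. limma 3.58.1 (R 4.3.3) was fitted over all genes with the time point as a block, two-sided, with Benjamini-Hochberg adjustment at 0.05, for HFC minus LFC over 10 time points and for the KAL-1 comparisons over 30 arrays of all 5 diets from Week 3 to Week 18. The fit was tested on simulated data.

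The genes, the 15 lists set beside them and the tests were chosen with earlier results of these data known. Named beside the 8 genes were the 10 genes with the highest r to their mean and, of each liver list, up to 5 genes by the smaller excess on both arrays; some genes the rule names are not reported here. Lists read on each array were other plasma proteins, hepatocyte enzymes and transporters, hepatocyte transcription factors, acute-phase proteins that fat also makes, intestine, kidney, pancreas, adipocyte, brown and beige fat, skeletal muscle, macrophage, lymphocyte, red blood cell, skin, and mammary and simple epithelium. Replicate numbers pair nothing beyond the time point. Alternatives were normexp background correction (offset 50), other scalings, other filters, outlier spots kept, other blocks, the methods' t-test, all probes and leaving out arrays or time points.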

Additional observations from a re-analysis of the deposited data

Results flagged for a closer look

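In each of the 5 diets, without the HFC array of Day 14 and the LFC array of Week 18, on which the genes had been chosen, the gap between the most extreme array and its neighbour was held against the 95% critical value of Dixon's test for the 8 genes. Of these 40 groups 4 passed it, 2 of them through a spot that was not well above background, and chance alone passes about 1 in 20. The gap to the next array divided by the range of the diet was 0.760 for Ttr in HF20, where Week 15 stood at -2.59 and the next array at -6.75. It was 0.669 for Fga in HF75, where Week 9 stood at -3.43 and the next array at -6.12. It was 0.755 for Alb in HF75, where Week 6 was the lowest at -6.87 and not well above background, and the next array stood at -2.63. It was 0.640 for Ttr in HF5, where Week 3 stood at -5.42 without being well above background.

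Lists not described so far gave these values. The 6 acute-phase genes that fat also makes had a mean level of 2.45 on HFC Day 14, the second highest, against -2.33 to 2.62 on the 37 arrays, and 2 of them were at least 8-fold above their median. Brown and beige fat genes had a mean of -3.71 there and -1.19 on LFC Week 18 (-4.39 to 2.01 on the 37 arrays), lymphocyte genes -2.76 and -3.15 (-5.25 to 2.07), and mammary and simple epithelium genes -3.11 and -3.96 (-6.66 to -1.96).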

How the results depend on the processing

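The excess of the 8 genes was recomputed under 6 alternatives (normexp, quantile normalization, median scaling, no scaling, outlier spots kept, all probes) and kept its direction in them, apart from Fga on LFC Week 18, which was -0.57 without scaling between arrays. Their median excess on HFC Day 14 was 6.36 under normexp background correction, and that on LFC Week 18 was 2.34 under normexp and 1.74 without scaling, where 2 of the 8 genes in place of 6 were at least 8-fold higher under either. For HFC minus LFC the adjusted count was 0 under 23 alternatives, with 468 to 3369 genes at an unadjusted p under 0.05. Without the HFC array of Day 14, or without both arrays of that time point, the difference was -0.42 for Alb, -0.26 for Ahsg and -0.24 for Fgg. Without Day 14, Week 3 and Week 18, an alternative chosen after seeing the data, it was -0.47, -0.11 and -0.090 for the same genes. A random block for the slide could not be fitted there, where 1 slide held 2 arrays. For the KAL-1 comparisons each of 17 alternatives gave an adjusted count of 0, except normexp for HF20, with 8121 genes, among them Fgb (1.88, limma adjusted p = 0.0239). Apoa2 in the KAL-1 diets together turned to 0.40 under normexp. Leaving out each time point in turn gave adjusted counts from 0 to 0 in the 5 comparisons, and differences for HFC minus LFC from -0.42 to 1.13 for Alb, -0.26 to 1.05 for Ahsg, -0.24 to 1.44 for Fgg, 0.026 to 1.77 for Fgb and 0.44 to 2.14 for Apoa2. Without Week 18 the last 2 were at their highest. Without the replicate block, that is without the time point in the model, the adjusted count was 0 in each comparison. Array number and brightness limit all of these: Apoa1, Fga and Ttr did not pass the filter on dim spots and were fitted only with no filter.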
